A study of Mus musculus with 200 samples.

Results

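The cytosolic ribosomal protein genes were followed through 200 RNA-seq libraries of mouse embryos and embryoid bodies around implantation. Members were all genes whose symbol is Rpl or Rps plus digits, with an optional closing a or x, together with Rplp0, Rplp1, Rplp2 and Rpsa. This rule uses names only, and it gave 76 of the 25006 genes of the screen table: 46 of the large ribosomal subunit and 30 of the small subunit. All 76 were listed in each of the 7 expression tables, and all 76 passed the filter on low values in each table. Genes such as Rack1, Fau, Rpl22l1 and Rps27l fall outside the rule and were kept as a separate list.

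Embryos came from natural matings and were dissected or grown on in a 3D culture, and about 10 to 100 cells made each library, which was amplified for 17 cycles (Smart-seq2, a full-length cDNA method). Values are TPM, in which a gene's reads are scaled by its length and then by the library, so that each value is a share of its library. The screen holds 148 libraries of E5.0 epiblast (Epi) in 10 batches. It has 40 knockout groups made with C-CRISPR, which cuts a gene with several guides in the embryo, and 29 untreated wild-type controls. Most screen groups have 3 libraries; the Ascl2 knockout and the controls of batch 7 have 2. Batch 8 is titled 6.0 and has the stage label E5.0.

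The smaller tables compared 3 treated with 3 wild-type Epi libraries each. GSK-J4, which blocks Kdm6a and Kdm6b, the enzymes that take methyl groups off H3K27, was given to E3.5 blastocysts at 50 µM per the series' design text, with Epi taken at E4.5 or E5.0; the labels repeat that dose for the E5.0 libraries and give none for those at E4.5. A Suz12 Eed double knockout, which removes subunits of the H3K27 methyltransferase PRC2, was profiled with its controls in E5.0 Epi and in E5.0 primitive endoderm (PrE). Zbtb17, the zinc finger transcription factor Miz-1 that partners Myc, was perturbed at E4.5 by a knockout whose treatment label reads dTAG, and at E5.0 by dTAG treatment, which degrades a tagged protein. Embryoid bodies (EB), wild type or Zbtb17 KO (titled ZB11), had 2 libraries each on days 0, 1, 2 and 3; the labels name no cell line and do not say whether ZB11 is 1 clone.

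A cytosolic ribosome holds 1 copy of nearly every ribosomal protein, so cells make these proteins in near-equal numbers. Their mRNAs are short, abundant and stable, and most begin with a cytosine followed by a run of pyrimidines, the 5′ terminal oligopyrimidine (TOP) tract. Through that tract mTORC1 sets how much of the mRNA is translated, and surplus Rpl5 and Rpl11 can bind Mdm2 and stabilise p53. Cells of the peri-implantation epiblast divide very fast and depend on high ribosome output.

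Quality differed between tables and, in some of them, between groups. Libraries of the same group correlated (Pearson r of log2 values across genes, a description) at 0.991 to 0.994 in EB, 0.926 to 0.940 in the E5.0 dTAG table, 0.683 to 0.997 in the screen and 0.497 to 0.569 in the Zbtb17 E4.5 table, where only 3986 to 4952 genes reached 1 TPM. In that table Pou5f1, a defining epiblast gene, was listed at 0 in 5 of 6 libraries, against its Epi label. With GSK-J4 at E5.0 treated libraries correlated at 0.844 to 0.853 and their controls at 0.977 to 0.978. Nelfb libraries correlated at 0.848 to 0.863 and the controls of their batch at 0.966 to 0.967. For Bend3 of batch 8 the order was the reverse, with 0.973 to 0.977 against 0.856 to 0.859 in controls. The E4.5 Epi controls of the GSK-J4 table carried PrE markers at a summed 5512 to 5778 TPM, with 15 to 17 of the 18 markers at 1 TPM or more. EB day 0 libraries detected 5970 to 6983 genes at 1 TPM, against 12807 to 13512 on later days, and their 10 epiblast markers summed to 114 to 136 TPM, against 5399 to 5476 TPM on wild-type day 1. The targeted gene was not always lower in libraries labelled as its knockout: Nelfb was at 13.8 to 26.7 TPM against 9.99 to 12.5 in its controls, and Myc at 131 to 160 TPM against 45.6 to 68.8. The ranges of knockout and control libraries overlapped for Ssrp1, Gtf2b, Ets2, Kdm6b and the Zbtb17 of the screen. Kdm6b, for example, was at 2.85 to 6.12 TPM against 2.95 to 15.4 in its controls. Frameshifts need not lower an mRNA, so these levels do not check the labels.

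The annotated start sites were searched for pyrimidine runs like those of a TOP tract. The search does not ask that the run begin where the mRNA begins, so a match need not be a TOP tract. For 20 members no annotated start was available. In RefSeq annotation (GRCm38.p6, the mm10 build), 56 members had an annotated start, and within 40 bases on either side of it 40 of the 56 (71.4%) held, on the gene's own strand, a run of 8 or more C or T letters that opens with C. The same run occurred in 26.1% of all 27025 RefSeq genes, in 21 of 66 mitochondrial ribosomal protein genes (31.8%) and in 5 of 12 other TOP mRNAs (41.7%). The stretches below belong to members that carry the results; each is 30 bases, 5′ to 3′ on the gene's strand, with the longest such run inside the searched window in capitals.
Rpl39, chrX:37085198-37085227, minus strand: gcctctagcgaCTTCTTCTaatcgcgttct
Rpl38, chr11:114668569-114668598, plus strand: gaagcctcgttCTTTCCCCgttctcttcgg
Rps21, chr2:180257403-180257432, plus strand: gcacgagctaCTTCCTTTCTgcgctctcgc
Rpl4, chr9:64173405-64173434, plus strand: gagcgtggCCTTCTCCTCTCCCcgtcatgg
Rps18, chr17:33955647-33955676, minus strand: tcacttccgCTCTCTCTTCCacaggaggcc
Rps10, chr17:27635226-27635255, minus strand: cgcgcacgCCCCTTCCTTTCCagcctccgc
Rpsa, chr9:120127775-120127804, plus strand: ccggccgcccgtCCTTTCgcgctacccggg
The run of Rpl39, a protein lining the exit tunnel, is 8 bases long, and that of Rpl4, which lines the same tunnel, is 14 bases long up to the edge of the window, where it is cut. Rpsa, the small-subunit protein also described as a laminin receptor precursor, has a longest run of 6 bases in its window and so falls among the 16 without a match; a match or its absence describes these letters only.

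In control epiblast the members spanned more than an order of magnitude in TPM, although their proteins are needed in near-equal numbers. TPM is scaled by a transcript length that the sources used here do not give, so levels of different genes depend on it. In GENCODE vM21 the mRNA chosen per gene has 5179 bases for Rps15a, 2051 for Rpl22 and 780 for Rpl13. The part of this length in the spread was not tested. Over the 29 screen controls Rpl13, a large-subunit protein, lay between 3306 and 6038 TPM with a median of 5154. Far below it, Rps15a lay between 71.9 and 210 TPM with a median of 156, and Rpl22, whose paralog Rpl22l1 had a median of 778 TPM, between 75 and 292 TPM with a median of 186. The ranges of Rps15a and Rpl22 do not meet that of Rpl13. Rpl4 (median 4665 TPM) and Rplp0, the base of the ribosomal stalk (median 3817 TPM), were among the higher members, and their ranges overlapped that of Rpl13.

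Members also differed in how steady they were over those controls. The coefficient of variation was 11.3% for Rpl7a and 11.5% for Rpl6, both large-subunit proteins. It was 57.3% for Rpl39, 52.1% for Rps28, 48.7% for Rps27, 44.7% for Rps29 and 43.7% for Rpl36a. Of these, Rpl36a has 318 coding bases and the others have 252 or fewer. Across the 29 controls, pairs of members correlated with a median Pearson r of 0.625 over 2850 pairs, and of 0.267 once the mean of each batch was removed; libraries of a batch share their handling, so this likeness is a description. Rpl37 and Rpl38 were the most alike (r = 0.98), as were Rps15a and Rps27a (r = 0.98). The members least like the rest were Rpl4 (median r -0.19), Rpl3 near the catalytic centre (-0.15), Rpl8 (-0.01) and Rpsa (0.11).

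Some members share sequence with expressed copies, so their reads may be split between rows. Rps18 had a median of 1958 TPM in the screen controls and its listed copy Rps18-ps4 187 TPM, with a range of 6.6 to 373. Rps27 had a median of 1034 TPM and the near-identical Rps27rt 1836 TPM. Values for Rps18, Rps27, Rps6, Rps15a, Rpl14, Rpl34, Rpl36a, Rpl22 and Rpl39 are therefore uncertain by the amount that counting could move between such rows.

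Between EB day 0 and the later days the members changed by up to 6.37 on the log2 scale, and short and long members changed in opposite directions. On wild-type day 0 the 76 members took 52.66 ± 0.16% of all TPM (SD, n = 2), and on days 1, 2 and 3 they took 22.79 ± 0.02%, 26.20 ± 0.02% and 27.15 ± 0.18%. In the Zbtb17 KO the shares were 54.85 ± 0.25%, 23.71 ± 0.09%, 26.97 ± 0.32% and 28.21 ± 0.17%. The day 0 libraries stand apart from all later ones in both genotypes. In these bulk samples fewer cells of a type and less RNA per cell cannot be told apart, and a share of TPM falls when other mRNAs rise.

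**Figure D1:**
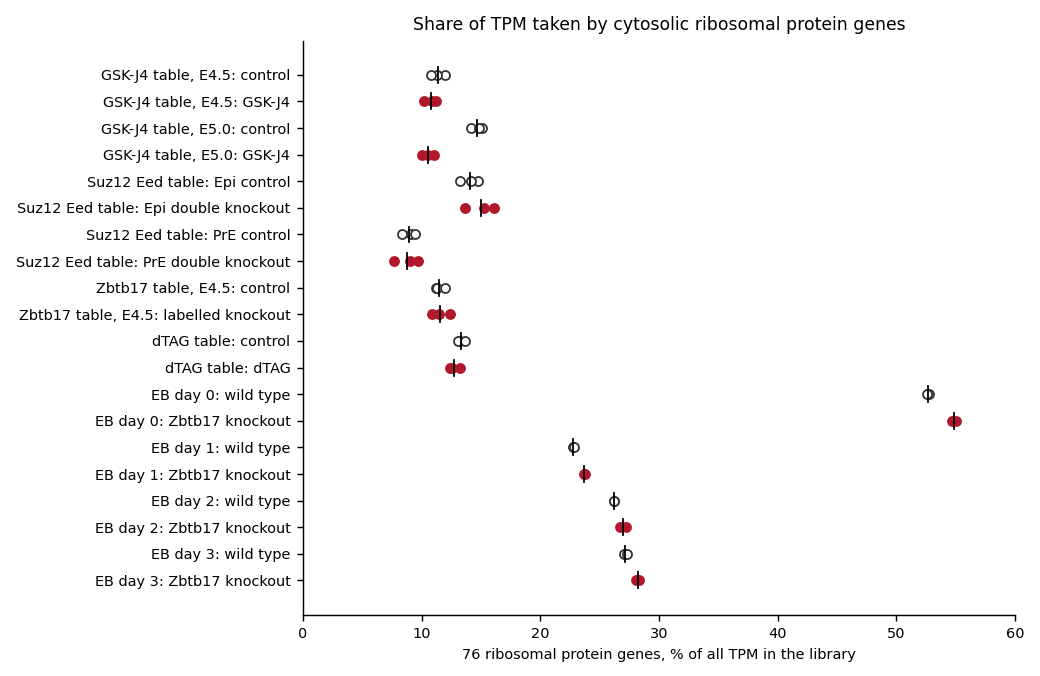
Share of all TPM taken by the 76 members (percent, x axis) in each library of 20 groups outside the screen (y axis). Open points are controls or wild type, red points are perturbed, and the tick is the group mean. EB day 0 libraries of both genotypes lie above 52%, every other library lies below 30%, and GSK-J4 at E5.0 lies below its controls.

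The short members were high on day 0. Rpl39 was at 38499.8 and 38334 TPM on wild-type day 0 and at 2095 and 1907 TPM on day 1, a log2 change of -4.26 ± 0.07 (SE, limma, Benjamini-Hochberg adjusted p = 4.3e-15). Rpl38, which the mouse embryo needs for normal body patterning, went from 36041 and 35005 TPM to 2493 and 2469 TPM (-3.84 ± 0.04), and Rps29 from 62562 and 61837 TPM to 5523 and 5517 TPM (-3.49 ± 0.03). No library of either day overlaps the other for these genes. Both small stalk proteins moved the same way: Rplp1 went from 32819.6 and 32870.5 TPM to 10242 and 9961 TPM (-1.70), and Rplp2 changed by -1.27. Rpl41, the shortest member with 75 coding bases, changed by -1.82, and Rpl22 by -1.73.

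The long members did the opposite. Rpl4 was at 53.7 and 52.7 TPM on wild-type day 0 and at 3336 and 3323 TPM on day 1, a log2 change of +5.94 ± 0.04 (adjusted p = 4.5e-18). Rpsa went from 37.3 and 33.8 TPM to 1136 and 1134 TPM (+4.96 ± 0.04), and Rplp0 from 136 and 128 TPM to 3796 and 3836 TPM (+4.84 ± 0.03). These groups do not overlap either. Rpl8 (+5.36), Rpl7a (+5.19), Rpl13 (+4.91) and Rpl3 (+4.33) completed the strongest rises, while Rpl5 (+3.01), Rpl11 (+1.16) and Rps6, the target of S6 kinase (+2.73), rose less. Rps27, listed at 26 and 106 TPM on day 0 and at 55.1 and 53 TPM on day 1, did not pass the test.

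In all, 38 members rose and 37 fell between wild-type days 0 and 1, against 87.6% of all tested genes higher and 5.77% lower. The Zbtb17 KO gave 39 higher and 34 lower (87.4% and 5.85% of all genes). Days 2 and 3 against the same day 0 libraries gave 41 and 32 (86.9% and 6.43%), then 42 and 32 (84.6% and 6.96%) in the wild type. In the KO they gave 41 and 31 (88.6% and 5.65%), then 43 and 31 (86.7% and 6.1%). These 6 comparisons share their day 0 libraries within a genotype. The median log2 change over members was 0.06 on wild-type day 1, and that over all genes 2.46.

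Scaling moved this split. On wild-type day 1, quantile normalisation gave 49 higher and 27 lower, and centring each library on its median gave 16 and 59, because it shifted the median of all genes from 2.46 to -0.50. The other 5 day comparisons ranged from 48 to 50 higher and 25 to 27 lower with quantile normalisation, and from 14 to 20 higher and 56 to 59 lower with centring.

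Coding length ordered the members closely. Spearman's rho between coding length and the day 1 change was 0.89 over the 76 members and 0.26 over 13360 other genes of the table, and in all 6 day comparisons the members' rho lay between 0.88 and 0.89. Genes are not independent replicates, so these values describe the libraries. Of the 9 members under 300 coding bases none rose and 8 fell (median -2.73); of the 46 from 300 to under 600 bases 18 rose and 28 fell (median -0.56); of the 21 with 600 bases or more 20 rose and 1 fell (median +3.40). The median over other genes of the same classes was -0.21, 1.39 and 2.82. The 9 shortest members took 25.5% of wild-type TPM on day 0 and 3.15% on day 1, and the 21 longest took 0.958% and 5.95%. The number of detected genes and the sum of epiblast markers, given above, moved with day 0 as well; their part in the result was not tested.

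**Figure D2:**
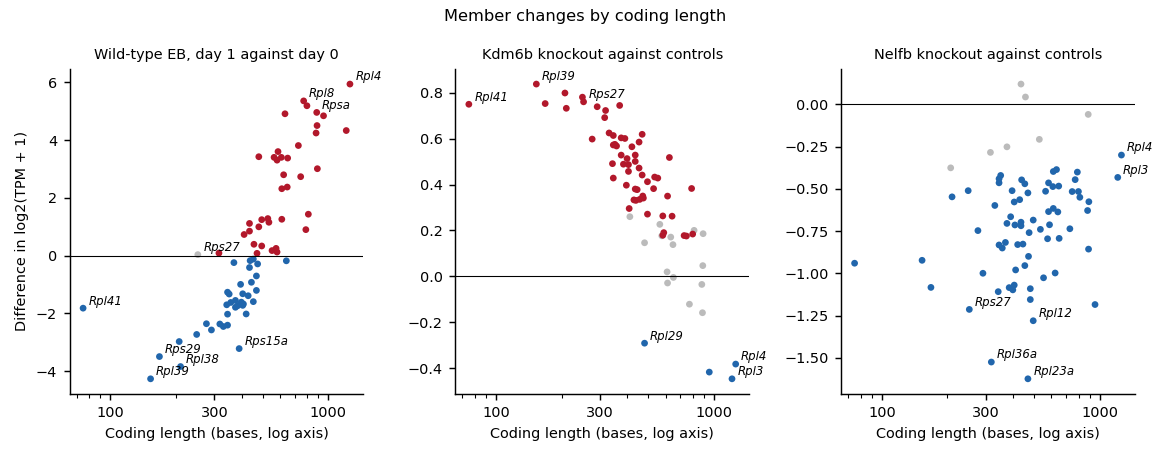
Log2 change (y axis) of each of the 76 members against its coding length in bases (x axis, log scale) for wild-type EB day 1 against day 0, for the Kdm6b knockout and for the Nelfb knockout, with red points higher, blue points lower and grey points not past the threshold. Short members fell and long members rose from EB day 0 to day 1, the order is the reverse and smaller for Kdm6b, and most Nelfb points lie below 0 at every length.

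Other lists of the pathway, chosen for ribosome supply and its control, give the setting for wild-type day 1. All 18 other TOP mRNAs rose (median 3.74). Nucleolar ribosome biogenesis genes gave 25 higher and 1 lower of 26 (median 5.05), and mitochondrial ribosomal protein genes 63 and 12 of 75 (median 2.83). All 11 mTORC1 brakes and translation repressors rose, 14 p53 targets of 15 rose and 1 fell, and ribosomal proteins outside the rule gave 8 higher and 4 lower of 12. For each list these counts stand beside the 87.6% of all genes that rose.

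Without day 0, most members that passed the test were higher. Against wild-type day 1, 61 members rose and 2 fell by day 2 (29.4% and 27.3% of all genes; member median 0.22, range -0.30 to 0.50), and 58 rose and 9 fell by day 3 (30.9% and 37.7%; median 0.24, range -0.67 to 1.06). In the KO the counts were 61 and 0 by day 2 (23.4% and 25.3%; median 0.18, range -0.05 to 0.42) and 67 and 2 by day 3 (22.2% and 36.6%; median 0.25, range -0.51 to 0.59). This comparison against day 1 was chosen after seeing the data.

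In Zbtb17 KO EB single members differed from the wild type while the median over members hardly moved. Zbtb17 itself was at 20.8 to 23.4 TPM in wild-type and 9.89 to 10.1 TPM in KO libraries on day 1, and at 0.249 to 0.356 TPM on day 0 in both genotypes. On days 0, 1, 2 and 3 the KO had 27, 22, 17 and 30 members higher, against 25.7%, 15.1%, 17.4% and 20.5% of all genes. It had 25, 8, 12 and 23 members lower, against 5.34%, 18%, 22.9% and 31% of all genes. The median over members lay between -0.00 and 0.03 on each day. With quantile normalisation the higher and lower counts were 25 and 12, 14 and 17, 14 and 19, and 25 and 26. With centring they were 19 and 48, 31 and 6, 18 and 10, and 41 and 11, so the balance between higher and lower turned with scaling.

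Rpsa rose most on every day. On day 1 it was at 1136 and 1134 TPM in the wild type and at 2730.2 and 2714 TPM in the KO (+1.26 ± 0.04, adjusted p = 9.3e-10). On day 2 it was at 1244 and 1224 TPM against 2884 and 2849 TPM (+1.21), and on day 3 at 1142 and 1129.7 TPM against 2901 and 2933 TPM (+1.36, adjusted p = 8.1e-11). The KO libraries are higher than every wild-type library on each of these days. On day 0 the values were 37.3 and 33.8 TPM against 74.5 and 75.8 TPM (+1.06 ± 0.04), and under each scaling the Rpsa rise kept its direction and passed the test, at 0.66 to 1.47.

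Rps18, in the head of the small subunit, also rose on every day, by 0.79, 0.67, 0.62 and 0.80, but its copy row fell. On day 1 Rps18 was at 2558 and 2604 TPM in the wild type and 4198 and 4032 TPM in the KO, while Rps18-ps4 went from 495 and 539 TPM to 13.3 and 15.2 TPM. The sum of both rows was 3053 and 3142 TPM against 4211 and 4048 TPM, so the KO libraries stay higher with both rows counted. On day 3 the sums were 3242 and 3473 TPM against 4587 and 4655 TPM. The copy was looked at after the values of Rps18 were seen.

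Rpl29, a large-subunit protein, rose on day 1 from 1372 and 1466 TPM to 2531 and 2405 TPM (+0.80) and on day 2 from 1611 and 1618 TPM to 2448 and 2438 TPM (+0.60). By day 3 it was at 1834 and 1982 TPM in the wild type and at 1732 and 1736 TPM in the KO. Rpl3 rose by 0.48 on day 1 and 0.38 on day 2, Rpl10, a late-assembly protein, by 0.38 on day 1, and Rps4x by 0.34 and 0.42 on those days. On day 0 Rpl8 (+0.87), Rps3 (+0.76), Rps2 (+0.67) and Rps9 (+0.65) rose with Rpsa. On day 3 Rps21 (+0.71), Rpl39 (+0.67), Rplp2 (+0.65) and Rpl36 (+0.60) rose.

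Falls in the KO were smaller. Rpl22 fell by 0.17 on day 1, by 0.24 on day 2 and by 0.41 on day 3, when it was at 834 and 817 TPM in the wild type and 619 and 619.6 TPM in the KO. Rpl21 fell on all 4 days, by 0.25 to 0.35. Rpl23a, near the exit of the tunnel, fell by 0.41 on day 0 and by 0.67 on day 3, from 9680.3 and 9589 TPM to 6077 and 6022 TPM. Rps7 (-0.57) and Rpl35 (-0.45) fell on day 0, and Rps14 (-0.51) and Rps26 (-0.50) on day 3.

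**Figure D3:**
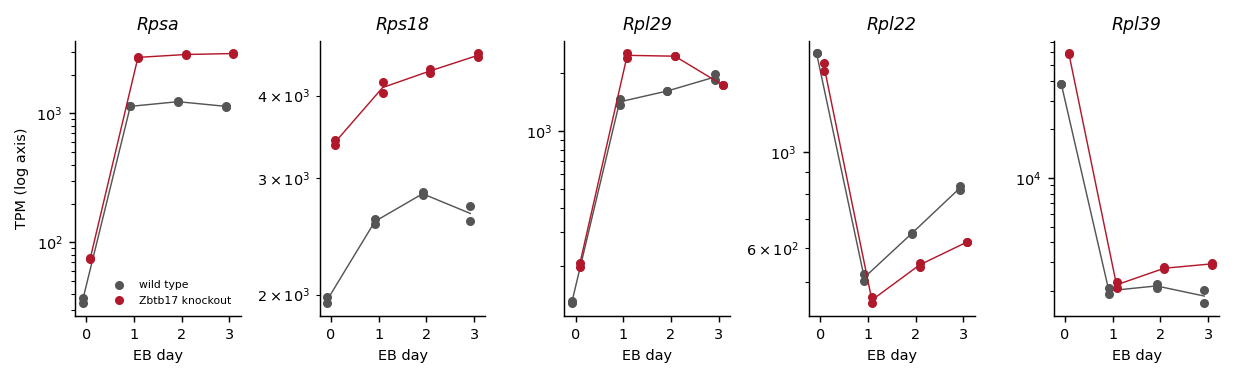
TPM (y axis, log scale) of Rpsa, Rps18, Rpl29, Rpl22 and Rpl39 by EB day (x axis), with 2 wild-type and 2 Zbtb17 KO libraries per day as points and lines through the group means. KO points for Rpsa lie above wild-type points on all 4 days, those for Rpl29 lie above it on days 0 to 2 and below it on day 3, and Rpl39 falls from 38334 TPM or more on day 0 to 2981 TPM or less.

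On KO day 1 other TOP mRNAs gave 1 higher and 9 lower of 18, nucleolar genes 3 and 9 of 26 and mitochondrial ribosomal protein genes 10 and 16 of 75. Trophectoderm markers moved with the genotype on that day: 10 of 13 were higher, and their sum was 73 to 75 TPM in the wild type and 362 to 384 TPM in the KO. Their part in the member changes was not tested.

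The other Zbtb17 tables did not repeat the Rpsa rise; they were normalised separately, so values are set side by side without a test. In the E5.0 screen Rpsa was at 237, 258 and 232 TPM in controls and at 115, 132 and 110.3 TPM in the libraries labelled Zbtb17 knockout (-1.02 ± 0.10, adjusted p = 1.8e-14). With dTAG it was at 597, 632 and 605 TPM in controls and 514, 455 and 527 TPM in treated libraries (-0.30 ± 0.08, adjusted p = 0.031), a call that was lost without a filter on low values (adjusted p = 0.081) and without any of 5 single libraries (0.051 to 0.098). Rpl29, named here after its values were seen, went from 299, 349 and 319.9 TPM to 438, 496 and 559.8 TPM in the screen (+0.62), the only member higher there, and changed by -0.01 with dTAG.

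Ribosomal protein mRNAs were lower in control PrE than in control Epi of the same stage. The 76 members took 14.04 ± 0.75% of TPM in Epi (n = 3) and 8.97 ± 0.57% in PrE (n = 2, because the libraries of PrE control 1 and 2 hardly differed and were counted as 1 sample). In PrE 64 members were lower and 1 was higher, against 33.5% and 16.5% of all genes. The median over members was -0.81 and that over all genes -0.39. Centring moved the median of all genes to -0.02 and left 26 lower and 1 higher, and quantile normalisation gave 67 and 1.

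Rps10, at the entry of the mRNA channel, was at 1622, 1571 and 1342 TPM in Epi and at 502, 454 and 428 TPM in PrE (-1.73 ± 0.14, adjusted p = 1.5e-07). Rpl13 was at 4177, 4755 and 3462 TPM in Epi and at 1384, 1399.9 and 1282 TPM in PrE (-1.62 ± 0.14). Every PrE library lies below every Epi library for both. Rplp0 (-1.46), Rpl8 (-1.39), Rps18 (-1.38) and Rpl14 (-1.36) were lower too, and so were Rpl11 (-0.82) and Rpl5 (-0.55). Rps25, used in initiation from internal entry sites, was the exception: 3082, 2692 and 3032 TPM in Epi and 4972, 4975 and 5094 TPM in PrE (+0.78 ± 0.12, adjusted p = 7.2e-05).

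The rest of the pathway was lower in PrE as well. Other TOP mRNAs gave 0 higher and 14 lower of 18 (median -1.02), nucleolar genes 0 and 21 of 26 (median -1.22), mitochondrial ribosomal protein genes 11 and 38 of 75, and p53 targets 0 and 12 of 14. The PrE label held: all 18 PrE markers were higher, with a sum of 425 to 658 TPM in Epi and 6965 to 7641 TPM in PrE.

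With GSK-J4 at E5.0 most ribosomal protein mRNAs were lower. The members took 14.67 ± 0.50% of TPM in controls and 10.53 ± 0.49% in treated Epi (n = 3 each). In treated Epi 63 members were lower and 1 was higher, against 11.7% and 16.6% of all genes, and 74 of 76 changes were negative. The median was -0.55 over members and +0.12 over all genes. Quantile normalisation gave 47 lower and 5 higher; centring, which moved the median of all genes to -0.37, gave 74 and 1.

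Rpl29 was at 1206, 1254 and 1239 TPM in controls and at 492, 528 and 573 TPM with GSK-J4 (-1.22 ± 0.08, adjusted p = 3.8e-05). Rps9, a small-subunit protein, went from 3958, 4203 and 4132 TPM to 1760, 2114 and 2037 TPM (-1.06 ± 0.08), and Rpl7a from 1961, 2144 and 2149 TPM to 885, 970 and 1139 TPM (-1.07). All treated libraries lie below all controls for these genes. Rps21 (-1.14), Rps13 (-1.13) and Rps10 (-0.89) were also among the strongest falls. The Mdm2-binding proteins fell too, Rpl5 by 0.85 and Rpl11 by 0.82, and Rpsa fell by 0.55.

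Rps27 was the only member higher past the threshold, and went from 810, 822 and 857 TPM to 1752, 1809 and 1814 TPM (+1.11 ± 0.06, adjusted p = 1.5e-05). Its near copy Rps27rt changed by +0.74 and its paralog Rps27l, a p53 target, by -0.50. All 11 tested genes of the list of ribosomal proteins outside the rule, which does not hold Rps27rt, fell (median -0.70), as did 15 of 18 other TOP mRNAs (median -0.73) and 24 of 75 mitochondrial ribosomal protein genes, of which 2 rose. Nucleolar genes gave 1 higher and 10 lower of 26, mTORC1 brakes 2 and 1 of 11, and p53 targets 3 and 2 of 14.

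PrE markers moved with GSK-J4 at E5.0: all 18 were higher, their sum was 886 to 930 TPM in controls with 9 to 10 markers at 1 TPM or more and Gata6 listed at 0 in 3 of 3, and 7822 to 8662 TPM in treated libraries. Epiblast markers summed to 1785 to 1838 TPM in controls and 786 to 972 TPM in treated libraries. Their part in the fall of the members was not tested.

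With GSK-J4 at E4.5 only Rps18 passed the test among the members. The shares were 11.35 ± 0.60% in controls and 10.75 ± 0.51% with GSK-J4, and 1 member was lower and none higher, against 0.541% and 0.611% of all genes. That member was Rps18, at 2043, 1829 and 1844 TPM in controls and 1416, 1370.1 and 1273 TPM in treated Epi (-0.49 ± 0.09, adjusted p = 0.019). The groups do not overlap, but the call was lost without the low-value filter (adjusted p = 0.18), with centring (0.051) and without any of 4 single libraries (0.059 to 0.071). The sum of Rps18 and its copy was 2261, 1970.5 and 2023 TPM in controls and 1759, 1665 and 1550.4 TPM in treated libraries. At an unadjusted p under 0.05, 8 of 76 members passed, and 1200 of all 9982 tested genes did. Of the member changes 58 of 76 were negative, and the share of negative changes over all genes is not reported here. PrE markers summed to 5512 to 5778 TPM in controls and 6935 to 7568 TPM with GSK-J4.

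In the Suz12 Eed double knockout few members changed in Epi, while in PrE some rose and others fell. Suz12 was at 20.5 to 28.8 TPM in control Epi and 7.34 to 18.0 TPM in the double knockout, and Eed at 157 to 204 TPM and 38.9 to 51.8 TPM. In Epi the shares were 14.04 ± 0.75% and 14.99 ± 1.25%, with 1 member higher and 1 lower (3.67% and 3.55% of all genes). Rpl29 fell from 475, 552 and 454 TPM to 308, 251 and 223 TPM (-0.93 ± 0.17, adjusted p = 0.004). Rps27 rose from 719, 693 and 650.3 TPM to 1099, 1285 and 928 TPM (+0.67 ± 0.16, adjusted p = 0.022), a call lost without the low-value filter (0.074), with centring (0.053) and when any of 5 single libraries was left out (0.054 to 0.084). Neither gene's groups overlap. Trophectoderm markers summed to 1597 to 1734 TPM in control and 5178 to 6161 TPM in double-knockout Epi.

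In PrE the double knockout had 12 members higher and 7 lower (17.4% and 4.22% of all genes), with shares of 8.97 ± 0.57% and 8.79 ± 1.05%. Quantile normalisation gave 21 and 5; centring gave 0 and 14 and moved the median of all genes from 0.35 to -0.13, so each rise named here was lost with centring. Without PrE control replicate 3 the 19 calls became 9, and Rps18 was among those lost. Rpl13 went from 1384, 1399.9 and 1282 TPM to 2456, 2277 and 2854 TPM (+0.91 ± 0.14, adjusted p = 0.00047; 0.17 with centring). Rps2 (+0.86), Rps18 (+0.78), Rpl10 (+0.77), Rplp0 (+0.68) and Rpl14 (+0.66) rose with it. Rps25 went from 4972, 4975 and 5094 TPM to 2438, 2197 and 2006 TPM (-1.19 ± 0.12, adjusted p = 2e-05), and every double-knockout library lies below every control. Rpl37 (-0.92), Rpl35 (-0.82), Rpl23a (-0.76), Rps21 (-0.69) and Rpl29 (-0.65) fell; of these 5 calls, those of Rpl37, Rpl35, Rps21 and Rpl29 were lost without the low-value filter (adjusted p = 0.064 to 0.12).

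Coding length went with the PrE changes at a Spearman's rho of 0.51 over the 76 members and -0.00 over 12024 other genes. Rpl13 and Rplp0, higher in control Epi than in control PrE, rose in double-knockout PrE, and Rps25, higher in control PrE, fell there; both comparisons use the same control PrE libraries. Other TOP mRNAs gave 7 higher and 1 lower of 18, p53 targets 10 and 0 of 14, mitochondrial ribosomal protein genes 20 and 8 of 75 and nucleolar genes 5 and 2 of 26. Of the 18 PrE markers 6 rose and none fell.

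At E4.5 the Zbtb17 knockout gave no call, by limma, among the members (0.131% of all genes higher and 0% lower). At an unadjusted p under 0.05, 4 of 76 members passed, and 370 of all 4576 tested genes did. Rpl29 showed the spread of these libraries: 117, 284 and 36.6 TPM in controls and 441, 229 and 539 TPM in the knockout (+1.82 ± 0.73, adjusted p = 0.57), with overlapping groups. Rps14 (+0.39, adjusted p = 0.44) and Rps27a (+0.52, adjusted p = 0.51) did not pass either. Zbtb17 was listed at 0 in all controls and at 0 to 1.12 TPM in the knockout.

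With dTAG at E5.0, 6 members rose and 15 fell, against 7.2% and 4.49% of all genes. Rplp0 went from 2550, 2722 and 2481 TPM to 3744, 3774 and 3645 TPM (+0.53 ± 0.04, adjusted p = 4.8e-05), and no treated library overlaps a control. Rpl39 (+0.44), Rpl10 (+0.38), Rpl36a (+0.37), Rps2 (+0.31) and Rps4x (+0.22) rose, and all 5 calls were lost with centring, where Rps4x turned to -0.04. Rpl37 (-0.39) and Rpl35 (-0.35) fell, as did Rpl22, from 92.5, 85.2 and 103 TPM to 59.7, 60.7 and 72.1 TPM (-0.54 ± 0.15, adjusted p = 0.043; 0.065 without the low-value filter and 0.066 to 0.14 without any of 5 single libraries).

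The balance of dTAG calls turned on scaling: quantile normalisation gave 8 higher and 8 lower, and centring, which moved the median of all genes from 0.14 to -0.12, gave 1 and 54. The 21 calls became 13 without control 55 and 12 without control 57. The shares were 13.33% in controls and 12.69% with dTAG. Zbtb17 mRNA was at 1.67 to 5.2 TPM in controls and 5.77 to 6.94 TPM in treated libraries; dTAG acts on protein, so mRNA does not check it. PrE markers summed to 730 to 865 TPM in controls and 2337 to 2439 TPM with dTAG, and trophectoderm markers to 2746 to 2966 TPM and 3668 to 4072 TPM; their part in the result was not tested.

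**Figure D4:**
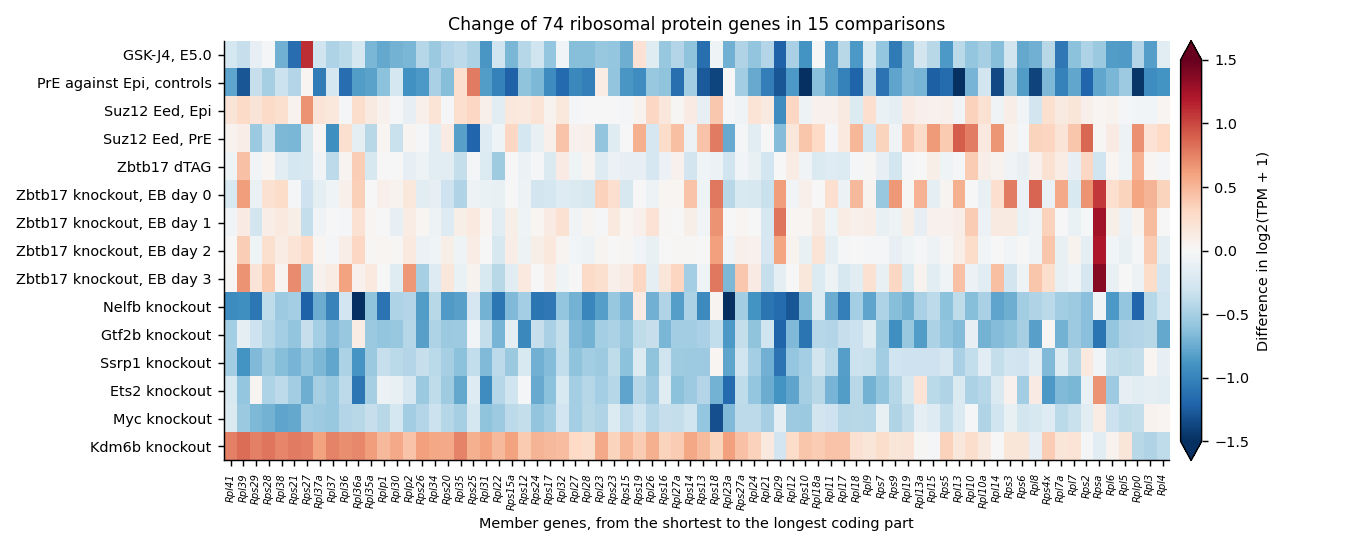
Difference in log2(TPM + 1) (colour, red higher and blue lower, capped at 1.5 in either direction) of 74 of the 76 members (columns, ordered by coding length from the shortest to the longest) in 15 comparisons (rows). The GSK-J4 E5.0, control PrE against Epi and Nelfb rows are blue over most columns, and Rpsa stands out in red in the 4 EB rows. The Kdm6b row is mostly red, with Rpl3, Rpl4, Rplp0 and Rpl29 among its blue columns.

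In the E5.0 screen more member and knockout pairs were lower than higher; knockout here means the libraries so labelled. Over 39 tested knockouts and 2964 member and knockout pairs, 641 pairs were lower, 191 higher and 2132 neither, while 3.24% of all gene and knockout pairs were lower and 3.4% higher. The median over members was negative in 26 knockouts, at or below -0.2 in 9 and at or above 0.2 in 2. The members' share of TPM lay below every control library of its batch in 20 of 40 groups, above in 4 (Kdm6b, Bend3 of batch 8, Zfp57 and Hsf2) and overlapped the controls in 16. Knockouts of a batch share their controls. Cbx7 alone gave no call (0.332% of genes higher and 0.283% lower). At an unadjusted p under 0.05, 4 of 76 members passed for Cbx7, and 589 of all 16264 tested genes did. The 3 Aurkb libraries differed too little to count as separate samples and were not tested; they took 13.07 ± 0.09% against 17.78% in controls.

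**Figure D5:**
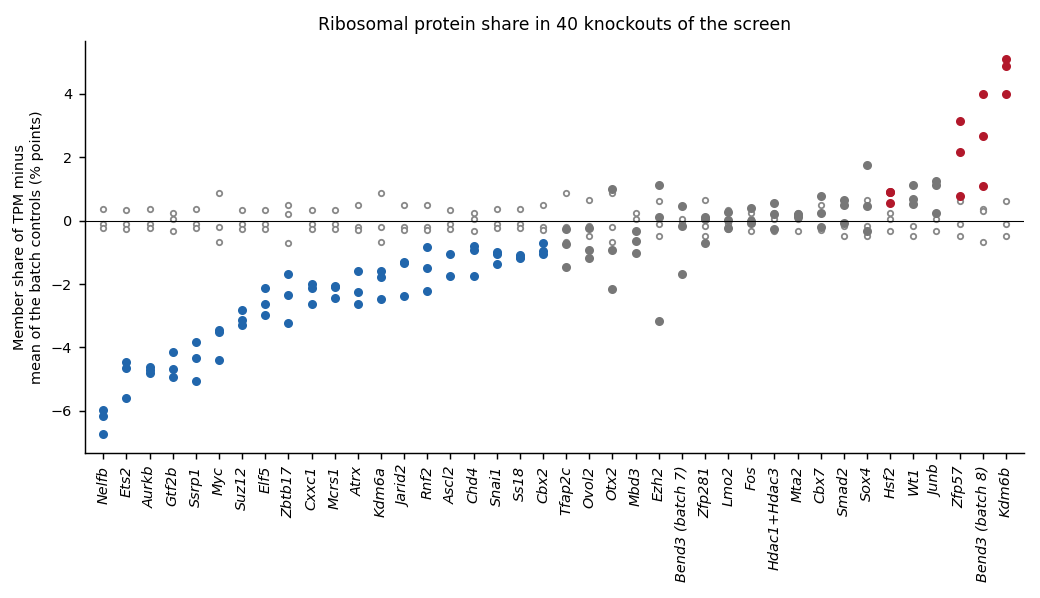
Share of TPM taken by the members minus the mean of the controls of the same batch (percentage points) for each library of the 40 knockout groups, ordered by group mean; blue groups lie below every control library of the batch, red groups above, grey groups overlap, and small open points are controls. Nelfb lies lowest at about 6 points below its controls and Kdm6b highest at about 5 points above.

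Nelfb encodes a subunit of NELF, which holds RNA polymerase II near promoters, and its knockout had the most members lower. In the libraries labelled Nelfb knockout 69 members were lower and none higher (5.79% and 8.07% of all genes), and the share was 11.49 ± 0.40% against 17.78 ± 0.32%. Rpl23a was at 1657, 1638 and 1728 TPM in controls and at 575, 468 and 592 TPM in the knockout (-1.62 ± 0.12, adjusted p = 9.4e-22). Rpl36a went from 1298, 1237 and 1245 TPM to 509, 318 and 514 TPM (-1.53), and Rpl12, at the base of the stalk, from 1325, 1387 and 1275 TPM to 505, 567 and 568 TPM (-1.28). All knockout libraries lie below all controls for these. Rps27 (-1.21), Rpl11 (-0.74) and Rpl5 (-0.58) fell, while Rpsa (-0.06) and Rps18 (+0.04) did not pass the test.

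Ssrp1, a subunit of the histone chaperone FACT, gave 65 members lower and none higher (1.41% and 2.96% of all genes), with a share of 13.38 ± 0.61% in the knockout. Rpl29 went from 1201, 1073 and 1085 TPM to 480.4, 535 and 537 TPM (-1.11 ± 0.10), and no knockout library reaches a control. Rpl39 (-0.90), Rpl36a (-0.88) and Rpl17 (-0.83) also fell. With quantile normalisation 38 were lower and 1 higher for Ssrp1, and 50 and 2 for Nelfb.

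Gtf2b, the general transcription factor TFIIB, gave 65 lower and none higher (3.23% and 7.43% of all genes), with shares of 10.16 ± 0.40% and 14.75 ± 0.29%. Rpl29 went from 1204, 1278 and 978 TPM to 513, 444 and 538 TPM (-1.20 ± 0.10), and Rps10 from 1652, 1482 and 1410.3 TPM to 708, 641 and 779.8 TPM (-1.09). Rpsa went from 508, 536 and 468 TPM to 217, 232 and 260.1 TPM (-1.09 ± 0.10, adjusted p = 7e-16), its lowest change over the screen. Knockout and control libraries do not overlap for any of the 3 genes, and Rps12 fell by 0.97.

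Ets2, an ETS transcription factor active in trophoblast, gave 57 lower and 2 higher (7.24% and 7.62% of all genes), with shares of 14.59 ± 0.62% and 19.49 ± 0.31%. Rpl23a went from 2166.1, 2215 and 2269 TPM to 814, 1079 and 1102 TPM (-1.16 ± 0.12). Rpsa moved against the family, from 482, 498 and 479.8 TPM to 755, 798 and 778 TPM (+0.67 ± 0.10, adjusted p = 1.4e-07). The groups do not overlap for either gene. Rpl36a (-1.09) and Rpl31 (-0.93) fell; Rpl13a rose by 0.20, a call lost with centring (adjusted p = 0.45), without control replicate 1 (0.072) and without knockout replicate 3 (0.29). Centring left 33 members lower and 1 higher.

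Myc drives transcription of ribosome genes in many cells. The libraries labelled Myc knockout had 58 members lower and none higher (1.72% and 4.32% of all genes), with shares of 13.41 ± 0.53% and 17.21 ± 0.79%. Without control replicate 1 the count of members called was 34, and with quantile normalisation it was 31. Rpl38 went from 2479, 1874 and 2000.1 TPM to 1011, 1259 and 1402 TPM (-0.79 ± 0.14). It is lower in every knockout library than in any control, and Rps21 fell by 0.77. Rps18 fell by 1.32 while its copy rose from 322 to 373 TPM in controls to 526 to 575 TPM; the sum of both went from 2505, 2200.2 and 2367 TPM to 1304, 1365 and 1403 TPM.

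Kdm6b, the H3K27 demethylase also inhibited by GSK-J4, went the other way, and short members led. There 57 members were higher and 4 lower (3.49% and 10.3% of all genes), with shares of 21.61 ± 0.57% and 16.96 ± 0.57%. Quantile normalisation gave 30 and 8, and centring 59 and 0. Rpl39 went from 977, 1136 and 912 TPM to 1746, 1778 and 1865 TPM (+0.84 ± 0.15, adjusted p = 6.6e-06), Rps28 rose by 0.80, Rps21 by 0.78 and Rps27 by 0.76. Rpl3 went from 2043, 2265 and 2158 TPM to 1651, 1552 and 1540.4 TPM (-0.45 ± 0.07, adjusted p = 1.8e-07). Neither pair of groups overlaps. Rplp0 (-0.42), Rpl4 (-0.38) and Rpl29 (-0.29) were lower, and with centring none of these 4 falls passed the test. Fitted on its own batch alone, Kdm6b gave 38 calls.

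Spearman's rho between coding length and change was -0.87 over the 76 members for Kdm6b and -0.02 over 14346 other genes. The median change was +0.75, +0.44 and +0.14 in the short, middle and long classes, with 9 of 9, 41 of 46 and 7 of 21 members higher. The members' rho was -0.76 for Bend3 of batch 7 and -0.69 for Zfp57, and it was 0.72 for Atrx, 0.69 for Otx2 and 0.63 for Snai1. Among the described knockouts with most members lower it was 0.22 for Nelfb, 0.52 for Ssrp1, 0.52 for Myc, 0.12 for Ets2 and -0.22 for Gtf2b. Over other genes it was 0.03, 0.09, 0.18, 0.04 and 0.02 in the same order.

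Markers of other cell types moved with these knockouts. PrE markers summed to 995 to 1066 TPM in batch 1 controls and 4028 to 4590 TPM in Nelfb libraries, and trophectoderm markers to 2420 to 3338 TPM in batch 10 controls and 7428 to 7941 TPM in Gtf2b libraries. Trophectoderm sums were 3987 to 4226 TPM and 8281 to 9333 TPM for Ets2, and 3143 to 3422 TPM and 6492 to 7011 TPM for Myc. For Ssrp1 the PrE sum was 1824 to 1951 TPM. In Kdm6b libraries PrE markers summed to 403 to 481 TPM against 969 to 1150 TPM in controls, and epiblast markers to 643 to 693 TPM against 1279 to 1684 TPM. Their part in the member changes was not tested.

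The other lists of the pathway were counted in the same 6 knockouts. The shares of all genes higher and lower are given above for each knockout. In either direction they came to 13.9% for Nelfb, 4.38% for Ssrp1 and 10.7% for Gtf2b. For Ets2, Myc and Kdm6b they came to 14.9%, 6.04% and 13.8%. A count near the share of all genes is not particular to its list. Where 1 direction is given, the other is not reported here. Other TOP mRNAs gave 11 of 18 lower for Nelfb and for Gtf2b, 10 for Ets2, 6 for Myc, 6 for Kdm6b and 3 for Ssrp1. Mitochondrial ribosomal protein genes gave 1 higher and 23 lower of 75 for Nelfb, 0 and 0 for Ssrp1, 5 and 6 for Gtf2b, 6 and 16 for Ets2, 0 and 10 for Myc and 14 and 13 for Kdm6b. Nucleolar genes had 3 or 4 of 26 lower in each of the first 5 and 11 lower for Kdm6b. Ribosomal proteins outside the rule gave 7 higher and 3 lower of 12 for Kdm6b, and 5 to 8 lower for the other 5 knockouts. Of the 15 p53 targets 4 were lower for Nelfb, 4 higher for Gtf2b and 5 lower for Ets2 and for Kdm6b.

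Taken member by member, Rpl29 was lower in 19 of 39 knockouts and higher in 4, Rps18 lower in 15 and higher in 4 and Rps21 lower in 14 and higher in 3. Rpsa was lower in 3 and higher in 8, from -1.09 for Gtf2b to +0.73 for Elf5, and Rpl10 was lower in 6 and higher in 8. The Mdm2-binding pair was lower in 10 knockouts each, with Rpl5 higher in 2 and Rpl11 in 1. Rps6 was lower in 11 and higher in 3, and Rpl3 lower in 9 and higher in 3. The stalk proteins were lower in 9 (Rplp0), 4 (Rplp1) and 5 (Rplp2) knockouts and higher in 3, 1 and 1. Rpl39 was lower in 9 and higher in 4, Rps27 lower in 10 and higher in 3, Rpl22 lower in 5 and higher in 3, and Rpl41, among the shortest proteins known, lower in 4 and higher in 2.

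Of the other knockouts, Kdm6a gave 3 members higher and 32 lower (3.15% and 2.13% of all genes), Suz12 1 and 34 (11.5% and 5.12%), Elf5 3 and 34 (7.45% and 8.21%), Cxxc1 1 and 27 (9.3% and 5.96%) and Mcrs1 3 and 24 (6.59% and 4.38%). Those 5 knockouts took 15.26% to 17.30% of TPM in members, below every control library of their batches. Zfp57, a KRAB zinc finger that guards imprints, gave 23 higher and 3 lower (3.59% and 7.69%), with shares of 18.99 ± 1.19% and 16.96 ± 0.57%. Ss18, Ovol2 and Junb had few genes called in all, members among them. Ss18 gave 0 members higher and 7 lower (1.03% and 0.572% of all genes), Ovol2 0 and 2 (0.363% and 0.0799%) and Junb 7 and 0 (0.141% and 0.129%). Members made up 7 of the 93 genes lower for Ss18, 2 of the 13 lower for Ovol2 and 7 of the 23 higher for Junb. The Junb and control libraries overlap for Rpl7 and Rps25, and so do their member shares of TPM. Rpl21 and Rpl9, higher for Junb, were also called higher for Hsf2, Fos and Mta2, which share the batch 10 controls. Ezh2, the catalytic PRC2 subunit, gave 2 higher and 10 lower (9.13% and 9.52% of all genes), and its libraries spread widely in share (16.31 ± 2.26%). For Atrx 0 were higher and 12 lower (1.06% and 1.16%).

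Zbtb17 in the screen gave 53 members lower and 1 higher (12% and 6.65% of all genes), with shares of 10.53 ± 0.79% and 12.94 ± 0.63%. Centring moved the median of all genes from -0.07 to 0.45 and turned the balance to 10 higher and 1 lower. Trophectoderm markers summed to 3468 to 4254 TPM in its controls and 9316 to 12782 TPM in the knockout. Bend3, a reader of repressed chromatin, was tested in 2 batches. Batch 8 gave 39 higher and 4 lower (9.34% and 8.01% of all genes) with shares of 16.16 ± 1.45% and 13.58 ± 0.58%, and batch 7 gave 5 higher and 16 lower (5.94% and 16.3%) with overlapping shares.

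The largest member change in the screen, named after its values were seen, was Rps18 in the Bend3 knockout of batch 8. It went from 1755, 1941 and 1726 TPM in controls to 329.6, 352 and 401 TPM (-2.32 ± 0.10, adjusted p = 2.8e-38), and the groups do not overlap. Rps18-ps4 went from 6.6, 10.1 and 7.6 TPM to 389, 451 and 557 TPM (+5.69). The sum of both rows was 1762, 1951 and 1734 TPM in controls and 719, 803 and 958 TPM in the knockout, so the fall of the sum is smaller than that of Rps18 alone. In the Nelfb knockout and with GSK-J4 at E5.0 the copy went the other way, from 243 to 249.7 TPM to 31 to 44 TPM and from 303 to 322 TPM to 36 to 51 TPM.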

How the data were processed

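Analysis started from 7 expression tables. The submitters' processing notes name StringTie 2.2.1, HISAT2 2.2.1, Cufflinks and the mm10 build; which tool did what is not given in the sources used here. The values the authors deposited are TPM, which keep no read counts, so depth is unknown and no counting error can be given; column totals were 984852 to 993453 TPM. The EB table holds no gene column and was read in the row order of the screen table (r = 0.893 between the tables in that order, at most 0.112 with rows shifted). Over the member rows alone r was 0.389. In that order 75 member rows were among the 200 highest EB rows, and the lowest member ranked 2110.

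Genes with at least 1 TPM in at least 3 libraries (2 for EB and Suz12 Eed) entered limma 3.58.1 as log2(TPM + 1) values (R 4.3.3; lmFit, eBayes with trend) within each table, with Benjamini-Hochberg adjustment over all tested genes and a threshold of 0.05. Fold changes are on the log2(TPM + 1) scale and understate low genes. The screen fit held all batches with knockouts set against controls of their own batch. The labels state biological replicates, and p-values measure the spread between libraries. That spread is pooled per gene over all groups of a table, not over the 2 compared groups alone. In the screen a gene thus has the same standard error in every knockout with 3 libraries and 3 controls. A gene can pass the test although the compared groups overlap. PrE control replicates 1 and 2 (r = 0.994) and the 3 Aurkb libraries were each averaged. Members, lists and tests were chosen with earlier results of these data known. Named per comparison were up to 6 strongest rises and 6 strongest falls among members past the threshold (the 3 smallest p where none passed; in the screen 4 and 4 in the 6 knockouts with most calls), besides a fixed set of well-known members; some items that this rule names are not reported here. Coding lengths came from GENCODE vM21. The test was checked for recovery on data simulated from the GSK-J4 E5.0 libraries with 200 changed genes. The screen's design was not simulated. Alternatives were another pseudocount, no filter, quantile normalisation, centring of libraries on their median, a replicate block and leaving out each library. Drawing used Python 3.11.15, pandas 2.3.3 and matplotlib 3.10.9.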

Additional observations from a re-analysis of the deposited data

Results flagged for a closer look

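Effects that differ between 2 tissues or between days, by a test of the difference in limma, were singled out. The Suz12 Eed double knockout acted differently on 13 members in PrE and in Epi, 7 more positive and 6 more negative in PrE (15% and 4.16% of all genes; 14 and 2 with quantile normalisation, 0 and 14 with centring). Rpl13 differed by 0.95 ± 0.19 and Rps2 by 0.78 ± 0.18, and Rps25 by -1.496 ± 0.16 and Rpl37 by -1.08 ± 0.34 (SE); the Rpl13 and Rps2 calls were lost with centring (adjusted p = 0.39 and 0.66) and the Rpl37 call in 10 of the alternatives.

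The Zbtb17 KO effect in EB differed between day 1 and day 0 for 43 members, 22 more positive and 21 more negative on day 1 (7.62% and 25.6% of all genes), led by Rpl35 (0.54), Rps7 (0.46), Rpl8 (-0.93) and Rps9 (-0.73). Between day 2 and day 0 it differed for 45 members, 24 and 21 (11.2% and 30.9%), led by Rps7 (0.54), Rps4x (0.52), Rpl8 (-0.93) and Rps2 (-0.80). Between day 3 and day 0 it differed for 56 members, 30 and 26 (13.5% and 36.2%), led by Rps21 (0.74), Rps27a (0.64), Rps3 (-1.04) and Rps14 (-0.94). Scaling turned these splits: quantile normalisation gave 12 and 23, 12 and 25, and 21 and 26, and centring gave 50 and 10, 47 and 13, and 49 and 10. All 3 share the day 0 libraries, which stand apart from every later library in detected genes.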

How the results depend on the processing

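Of the recomputed main counts of members called per comparison, 308 stayed within 1.5 times the original and 30 did not; of other recomputed counts 291 did and 138 did not. Of the recomputed changes of named members 2699 kept direction and call, 129 lost the call and 1 reversed. For GSK-J4 at E4.5 the count of 1 became 0 without the filter and with centring, 2 with quantile normalisation and 0 to 1 when single libraries were left out. For Suz12 Eed in Epi the count of 2 became 1 without the filter and with centring, and 1 to 2 with libraries left out. In PrE the 19 became 11 without the filter, 12 without PrE control replicates 1 and 2, and 9 to 17 with libraries left out (9 without control replicate 3). The 13 PrE against Epi differences became 7 without the filter, 7 without PrE control replicates 1 and 2, and 6 to 15 with libraries left out (6 without PrE control replicate 3). Control PrE against Epi fell from 65 to 27 with centring. For dTAG the 21 became 12 without the filter, 55 with centring and 12 to 17 with libraries left out (13 without control 55, 12 without control 57). In the screen quantile normalisation gave 39 for Ssrp1, 31 for Myc and 38 for Kdm6b, centring gave 34 for Ets2, fitting each batch alone gave 38 for Kdm6b, and Myc ranged from 34 to 56 with libraries left out (34 without control replicate 1). Rps4x with dTAG reversed to -0.039 with centring. The causes were not tested.

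Replicate numbers were not taken as pairs, and the dTAG groups share none: of 41 comparisons with 3 pairs, 0 had every pair above a correlation of 0.1. With the replicate block the screen total of 832 calls became 898, and GSK-J4 at E5.0 gave 66, Suz12 Eed in PrE 25, in Epi 3 and the PrE against Epi difference 18. Screen totals ranged from 646 with quantile normalisation to 918, with 831 after rescaling TPM without Rn45s and 757 without batches 6 and 7, both added after seeing the data. Without counts, depth limits no value in a way that can be stated.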
